A study of Solanum tuberosum with 6 samples.

Results

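A set of 10 families of microRNAs (miRNAs), most of them conserved among plants, was examined in potato leaves because very few reads of them were present: miR156, miR157, miR164, miR169, miR172, miR395, miR399, miR778, miR827 and miR2111. Every sequence of the table that carries one of these names in its mature form (written miR) was taken, which gave 25 of the 910 sequences, from 7 of the 10 families. The low read number was itself the reason for the choice, so that the levels are given as a description and without a test. The comparison of treated with untreated leaves was not part of the choice, but it was made with earlier results of these data known.

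Small RNA libraries were sequenced from leaves of potato, Solanum tuberosum cv. Shepody, grown from seed tubers in pots in a greenhouse. The KPhi group (libraries T2, T4 and T6) came from plants whose foliage was sprayed 21 days after emergence with potassium phosphite (KPhi), as a commercial product diluted in water to 1% (v/v) and given at 5 mL to each plant. The control group (libraries C1, C3 and C5) came from plants sprayed with distilled water. All leaves were collected 72 h after the spray, 24 days after emergence. The libraries of each group are described as biological replicates.

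Plant miRNAs are short RNAs, cut from a hairpin precursor, that guide the cleavage or the silencing of messenger RNAs with a matching site. Phosphite, a reduced relative of phosphate, enters plant cells without serving them as a phosphorus source, and in Arabidopsis it is known to weaken responses to phosphate starvation. Among the families examined here, miR399 acts in that response by targeting the messenger RNA of the ubiquitin-conjugating enzyme PHO2, and miR827, miR2111 and miR778 are also induced by phosphate starvation in Arabidopsis. miR395 belongs to the response to sulfate starvation, where it targets ATP sulfurylases and a sulfate transporter. miR156 and its close relative miR157 target SPL transcription factors and mark the juvenile phase, whereas miR172 targets AP2-like factors and marks the adult phase. miR164 targets NAC transcription factors and miR169 targets NF-YA subunits of the NF-Y factor. Messenger RNAs were not measured in the files used here.

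The sequences that hold most of the reads of each family and arm are shown with the seed, bases 2 to 8 from the 5′ end, in capitals and in DNA letters. The prefix names the species of the closest known miRNA (stu potato, sly tomato, nta tobacco), L and R give bases added or missing at the left or right end, and 1ss9GT means a single substitution of G to T at position 9. The sequences of miR399 come first, with 3 of the 3′ arm that share a seed and the main one of the 5′ arm.
stu-miR399i-3p: tGCCAAAGgagagttgcccta
stu-miR399a-3p_1ss9GT: tGCCAAAGtagagctgccctg
stu-miR399g-3p_1ss10GA: cGCCAAAGgagagctgcccta
stu-miR399i-5p: gGGCTACActctattggcatg

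The other families linked to nutrient starvation were represented by 2 sequences each. Both sequences of miR827 are shown because each held 3 reads, and miR395 is shown by its potato sequence.
stu-miR827-3p_1ss21AT: tTAGATGAacatcaacaaact
stu-miR827-5p_R+1: tTTGTTGAtggtcatctattca
stu-miR395a: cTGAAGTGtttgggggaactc

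Within miR156, 2 forms carried most of the reads, and the other 2 show the same stretch of RNA with shifted ends. The sequence listed as stu-miR156a is the one that is known in Arabidopsis as miR157.
stu-miR156a: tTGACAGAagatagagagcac
nta-miR156a_L+2R-2: aCTGACAGaagagagtgagc
stu-miR156f-5p: cTGACAGAagagagtgagca
stu-miR156e: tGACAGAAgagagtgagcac

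For miR172, miR164 and miR169 the leading sequence is shown with the form it can be compared with, and for miR164 also with the main sequence of the 3′ arm.
stu-miR172a-3p: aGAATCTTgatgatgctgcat
stu-miR172d-3p: gGAATCTTgatgatgctgcag
sly-miR164a-5p: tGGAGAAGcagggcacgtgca
stu-miR164-5p: tGGAGAAGcagggcacatgct
sly-miR164a-3p: cATGTGCCtgttttccccatc
sly-miR169c_1ss7AG: cAGCCAGGgatgacttgccga
stu-miR169a-5p: tAGCCAAGgatgacttgcct

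The 25 sequences had 18 distinct seeds, and 5 seeds occurred more than once, always within 1 family. The seed GCCAAAG was shared by the 3 miR399 sequences of the 3′ arm (36.7 reads), GAATCTT by 3 miR172 sequences (12.2 reads), GGAGAAG by both miR164 sequences of the 5′ arm (90 reads), TGACAGA by 2 miR156 sequences (18.8 reads) and GGCTACT by 2 miR399 sequences of the 5′ arm (0.782 reads). Reads are not whole where the deposited table divides a read among several sequences or loci.

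The libraries held 4390887 to 8025802 mappable reads in the KPhi group and 4133739 to 5434422 in the control group. A single read was therefore worth 0.125 to 0.242 reads per 1000000 mappable reads (RPM), and a count of 3 reads, the upper limit that a count of 0 allows, was worth 0.374 to 0.726 RPM. The miRNA table held 3.66 to 9.35% of the mappable reads in KPhi libraries and 9.14 to 11.3% in control libraries, and the miR166 family took 60.0 to 81.3% of the table's reads in KPhi libraries and 81.4 to 83.5% in control libraries. The library T4 had 33.5% of its reads longer than 32 nt, against 3.13 to 13.6% in the other 5, and its TMM normalization factor was 1.85, against 0.74 to 0.94 in the others. Because the table's share of the reads differed between the groups, the levels below depend on the total by which they are divided. They are given per mappable reads, and the ratios of the families per table reads stand among the processing alternatives.

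The 10 families together held 215 reads over the 6 libraries, which was 0.00845% of the reads of the table and 6.57 RPM. Ordered by their reads, the 7 families with any sequence stood at rank 23 (miR164), 34 (miR399), 38 (miR156), 43 (miR169), 44 (miR172), 55 (miR827) and 70 (miR395) of the 87 families of the table. Their median was 17.1 reads, with a range of 2.43 to 100, against a median of 334 reads for 18 other conserved families and of 11 reads for all 80 families outside the list. Low read numbers were thus not particular to them, since 5 of those 18 conserved families also had at most 100 reads: miR319 with 99, miR390 with 71, miR394 with 42.7, miR393 with 23 and miR397 with 5.

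**Figure D1:**
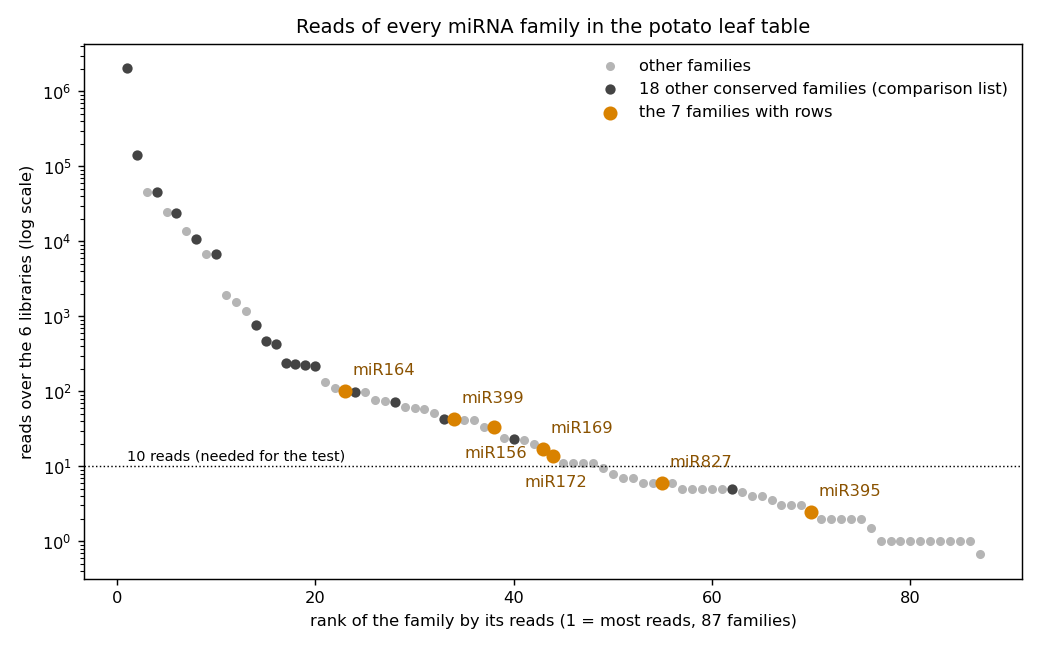
Reads over the 6 libraries (log scale) of each of the 87 miRNA families of the table against its rank, with the examined families and the 18 other conserved families marked. The 7 examined families with a sequence lie between rank 23 and rank 70, with 100 reads for miR164 at the upper end and 2.43 for miR395 at the lower end.

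No sequence was listed in the table under the name miR157, miR778 or miR2111, although the sequence known in Arabidopsis as miR157 was present under the name stu-miR156a. The RefSeq annotation of potato (assembly SolTub_3.0) also names no locus after these 3 families, whereas it names 15 for miR399, 11 for miR156, 8 each for miR169 and miR395, 5 for miR172 and 1 each for miR164 and miR827. Whether the set of known miRNAs used for naming held these 3 names is not given in the sources used here, so no upper limit was set for them.

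Single sequences were rarer still. The median was 3 reads per sequence over the 6 libraries, against 9 for the 187 other mature sequences, and 20 of the 25 (80%) had under 10 reads, against 51.9% of the others. The 5 with at least 10 reads were sly-miR164a-5p (82 reads), stu-miR399i-3p (21.3), sly-miR169c_1ss7AG (16), stu-miR156a (14.8) and nta-miR156a_L+2R-2 (13). Just below that number stood sly-miR164a-3p with 9 reads and stu-miR172a-3p with 8.67. Only 5 of the 25 were read in every library, and 6 were read in a single one, where any value above 0 counts as read.

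In length the 25 sequences lay closer to typical mature miRNAs than the other mature sequences did. Of the 25, 16 (64%) were 21 nt long, 5 were 20 nt, 2 were 22 nt and 2 were 24 nt, while 36.9% of the other mature sequences were 21 nt and 24.1% were 24 nt. T, the base with which most plant miRNAs start, was first in 12 of the 25 (48%), against 106 of the 187 other mature sequences (56.7%). By reads these shares were 67.6% and 99.5%, the second of which is set mostly by miR166. Tomato names carried 109 of the reads (50.8%) in 5 sequences, potato names 89.6 reads in 17 and tobacco names 16 reads in 3. Fractional reads were present in 13 of the 25 (52%), against 36.9% of the other mature sequences. For example, all values were whole multiples of 1 in 7 reads for stu-miR395a, of 1 in 11 for stu-miR399i-3p and of 1 in 8 for stu-miR169a-5p, and finer fractions occurred in other miR399 sequences. RefSeq names several loci for each of these 3 families, and the rule by which reads were divided is not given in the sources used here.

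**Figure D2:**
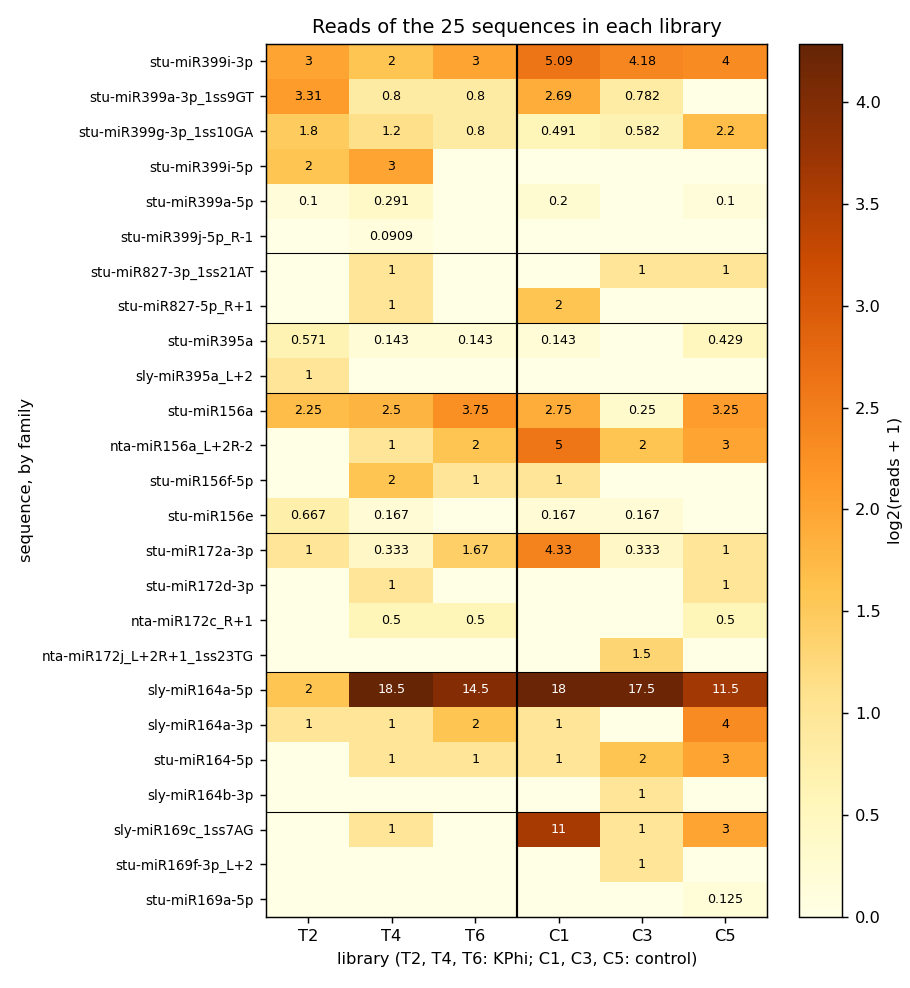
Reads of each of the 25 sequences (rows, by family) in the KPhi libraries T2, T4 and T6 and the control libraries C1, C3 and C5 (columns), coloured by log2(reads + 1) with the reads written in each cell above 0. Most cells hold 0 to 3 reads, and sly-miR164a-5p, with 11.5 to 18.5 reads in 5 libraries and 2 in T2, is the row with most reads.

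Over all 10 families, the KPhi libraries held 18.7 (T2), 38.5 (T4) and 31.2 (T6) reads, against 54.9 (C1), 33.3 (C3) and 38.1 (C5) reads in the control libraries. This was 2.33, 8.77 and 5.24 RPM in KPhi and 10.1, 7.01 and 9.22 RPM in control leaves, or 5.45 ± 3.23 against 8.78 ± 1.59 RPM (SD, n = 3 each). The groups overlapped, since T4 lay above C3. The KPhi mean was 0.621 of the control mean. A two-sided exact permutation test did not show a difference (p = 0.2, where 3 against 3 libraries allow no p below 0.1). Divided by the reads of the miRNA table instead, the ratio was 1.32, on the other side of 1 (two-sided exact permutation test, p = 1). In leaf tissue, fewer cells that express a miRNA and less of it per cell cannot be told apart.

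The number of different sequences seen did not follow the depth. T4, with fewer mappable reads than T2 and T6, had a value above 0 for 20 of the 25, against 12 in T2 and in T6, and 15, 14 and 15 in the control libraries C1, C3 and C5. These numbers include parts of divided reads, in T4 for example 0.0909 for stu-miR399j-5p_R-1, 0.143 for stu-miR395a and 0.167 for stu-miR156e. The other libraries also held such parts, and sequences with at least 1 whole read were not counted. Over all 910 sequences, T4 had the fewest with any read (574, against 598 to 703 in the other 5 libraries).

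Family totals, rounded to whole reads in each library, were compared in a fit across all 49 families that then had at least 10 reads over the 6 libraries. Of the 7 families, 5 reached this number. At an adjusted p under 0.05 none of the 49 (0%) and hence none of the 5 differed between KPhi and control leaves by edgeR's quasi-likelihood test with Benjamini-Hochberg adjustment. Without adjustment 6 of the 49 (12.2%) had p under 0.05, of which miR169 was the only 1 of the 5. DESeq2 gave 0 adjusted and 5 unadjusted calls, and limma-trend 0 and 4. With TMM scaling 2 of the 5 families had a log2 fold change above 0 and 3 below 0 (51% of all 49 were below 0), with a median of -0.37 against -0.04 over all 49. For the 17 tested families of the other conserved list these were 9 above and 8 below 0, with a median of 0.00. Among the 3 examined families below 0, miR169 reached the minimum mainly through control reads (16.1, against 1 in KPhi), so the filter partly set its direction. Scaling by mappable reads moved the median of all 49 to -0.48 and put all 5 below 0, while scaling by the table's reads moved it to 0.39 and left 2 of the 5 below 0. In RPM, the KPhi mean was below the control mean in 6 of the 7 families, a direction shared by 55 of all 87 families (63.2%).

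miR399, the family that acts on PHO2 in phosphate starvation, had 10.2 (T2), 7.38 (T4) and 4.60 (T6) reads in KPhi libraries, against 8.47 (C1), 5.55 (C3) and 6.30 (C5) reads in control libraries. The highest and the lowest of the 6 values were both KPhi libraries, so the groups overlapped. In RPM the level was 1.24 ± 0.454 in KPhi and 1.42 ± 0.216 in control leaves (SD, n = 3 each; two-sided exact permutation test, p = 0.7). The log2 fold change was 0.35 (standard error 0.55, 95% interval -0.89 to 1.60, edgeR adjusted p = 0.853) with TMM and -0.20 when scaled by mappable reads, so that its sign depended on the scaling.

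The 3′ arm, from which the active miR399 comes, held 36.7 of the family's 42.5 reads (86.4%). Its reads were 8.11, 4.00 and 4.60 in T2, T4 and T6, against 8.27, 5.55 and 6.20 in C1, C3 and C5. The leading sequence stu-miR399i-3p had 3, 2 and 3 reads in KPhi libraries and 5.09, 4.18 and 4 in control libraries. Every KPhi library thus had fewer raw reads than every control library, and in RPM the groups did not overlap either. However, no KPhi library was above the 3 reads that a count of 0 allows. The share of all sequences without such overlap was not counted, so the separation is given as a description only. Under scaling by mappable reads, 352 of the 509 sequences tested had a log2 fold change below 0, against 267 with TMM. With TMM scaling T2, at 8.87 counts per 1000000, lay above C1, at 8.67. The log2 fold change of this sequence was -0.53 with TMM (standard error 0.75, edgeR adjusted p = 0.891). That fit covered all 509 sequences with at least 10 reads after rounding. Scaled by mappable reads, the log2 fold change was -1.01 (edgeR adjusted p = 0.842). With TMM it differed in sign from that of the family total. The sequences stu-miR399a-3p_1ss9GT and stu-miR399g-3p_1ss10GA share its seed and differ from it by G9T, T14C and A21G, and by T1C and T14C (positions from the 5′ end, base of stu-miR399i-3p first).

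The 5′ arm, the opposite strand of the precursor, held 5.78 reads, of which 5.48 were in KPhi and 0.3 in control libraries. Nearly all came from stu-miR399i-5p, with 2 (T2), 3 (T4) and 0 (T6) reads in KPhi libraries and 0 in each control library. No KPhi library was above the 3 reads that a count of 0 allows, so no fold change is given, and T6 did not differ from the controls. The other 5′ sequences, stu-miR399a-5p and stu-miR399j-5p_R-1, differ from it by A8T and held 0.691 and 0.0909 reads.

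miR827, which targets messenger RNAs of SPX-domain proteins such as NLA in Arabidopsis, had 0, 2 and 0 reads in T2, T4 and T6, against 2, 1 and 1 in C1, C3 and C5. The pooled level was 0.109 RPM in KPhi (95% exact Poisson interval 0.0132 to 0.393) and 0.279 RPM in control leaves (0.0761 to 0.715), intervals that cover counting error only, on reads rounded to whole numbers. They overlap widely, and with 6 reads the family was under the minimum for a test across families. Its 3′ and 5′ arms held 3 reads each.

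miR395 was the rarest family with 2.43 reads, and the 1 family whose KPhi mean in RPM was above the control mean. It had 1.57 (T2), 0.143 (T4) and 0.143 (T6) reads in KPhi libraries, against 0.143 (C1), 0 (C3) and 0.429 (C5) in control libraries. The value of T2 rested on a single read of sly-miR395a_L+2, a 24 nt form that contains all 21 bases of stu-miR395a, and without T2 the KPhi mean was below the control mean. Every library was under the 3 reads that a count of 0 allows, so no fold change is given.

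miR156, the regulator of SPL factors in the juvenile phase, had 2.92 (T2), 5.67 (T4) and 6.75 (T6) reads in KPhi libraries, against 8.92 (C1), 2.42 (C3) and 6.25 (C5) in control libraries. The groups overlapped, with control libraries at both ends of the range of raw reads. The level was 0.930 ± 0.497 RPM in KPhi and 1.22 ± 0.620 RPM in control leaves (SD, n = 3 each; two-sided exact permutation test, p = 0.5). The log2 fold change was 0.12 (standard error 0.60, 95% interval -1.24 to 1.47, edgeR adjusted p = 0.961) with TMM and -0.32 when scaled by mappable reads.

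Its reads fell into 2 sequence types. The form listed as stu-miR156a had 2.25, 2.50 and 3.75 reads in T2, T4 and T6, against 2.75, 0.25 and 3.25 in C1, C3 and C5. For this form the log2 fold change was 0.54 (standard error 0.99, edgeR adjusted p = 0.940). The other 3 sequences are frames of 1 RNA, as they align with 0 mismatches where they overlap, and they differ from stu-miR156a by T12G and A15T (positions counted in stu-miR156a from the 5′ end, its base first), those that reach its first base also by T1C. Of these frames nta-miR156a_L+2R-2, which has another seed because its 5′ end is shifted, had 0, 1 and 2 reads in KPhi libraries and 5, 2 and 3 in control libraries. After normalization it was at 0, 3.36 and 3.96 counts per 1000000 (CPM, with TMM) in KPhi, against 8.67, 5.81 and 8.53 in control libraries, without overlap. A lower KPhi group without overlap was found for 6.88% of all 509 sequences tested, and the log2 fold change of -1.48 (standard error 1.05, edgeR adjusted p = 0.835) did not pass the test. The difference between the forms was not tested.

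miR172, the regulator of AP2-like factors that in potato is also known for a role in tuber formation, had 1, 1.83 and 2.17 reads in T2, T4 and T6, against 4.33, 1.83 and 2.50 in C1, C3 and C5. In RPM it was 0.302 ± 0.156 in KPhi and 0.596 ± 0.206 in control leaves (SD, n = 3 each; two-sided exact permutation test, p = 0.2), with C3 inside the range of the KPhi libraries. Its log2 fold change was -0.46 (standard error 0.68, 95% interval -1.99 to 1.07, edgeR adjusted p = 0.853). The sequence stu-miR172a-3p held 63.4% of the reads, and stu-miR172d-3p, which differs from it by A1G and T21G outside the seed, held 2 reads. The tobacco forms nta-miR172c_R+1 and nta-miR172j_L+2R+1_1ss23TG, with 1.5 reads each, contain the whole of stu-miR172a-3p and of stu-miR172d-3p. The ratio of reads of miR156 to those of miR172 is not given, because in most libraries miR172 was at or under 3 reads.

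miR164, which limits NAC factors such as the CUC genes of organ boundaries, was the best covered of the families with 100 reads. It had 3 (T2), 20.5 (T4) and 17.5 (T6) reads in KPhi libraries, against 20 (C1), 20.5 (C3) and 18.5 (C5) in control libraries. These were 0.374, 4.67 and 2.94 RPM in KPhi and 3.68, 4.32 and 4.48 RPM in control leaves, or 2.66 ± 2.16 against 4.16 ± 0.421 RPM (SD, n = 3 each; two-sided exact permutation test, p = 0.4). T2 stood apart, with the fewest miR164 reads in the library with the most mappable reads, while T4 was above every control library. The log2 fold change was -0.37 (standard error 0.64, 95% interval -1.81 to 1.08, edgeR adjusted p = 0.864). It was 0.15 without T2 and 0.32 when scaled by the table's reads, so that its sign depended on 1 library and on the scaling.

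The 5′ arm held 90 of the reads, 82 of them from sly-miR164a-5p and 8 from stu-miR164-5p, which differs from it by G17A and A21T and has the same seed. The tomato form had 2, 18.5 and 14.5 reads in T2, T4 and T6, against 18, 17.5 and 11.5 in C1, C3 and C5, with a log2 fold change of -0.33 (standard error 0.68, edgeR adjusted p = 0.944). The potato form had 0, 1 and 1 reads in KPhi libraries, against 1, 2 and 3 in control libraries. The 3′ arm, mostly sly-miR164a-3p, had 1, 1 and 2 reads in KPhi libraries, against 1, 1 and 4 in control libraries, where sly-miR164b-3p gave a single read in C3.

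miR169, the regulator of NF-YA subunits that is known for responses to drought and to nitrogen supply, had the fold change farthest from 0 among the 5 tested families. It had 0 (T2), 1 (T4) and 0 (T6) reads in KPhi libraries, against 11 (C1), 2 (C3) and 3.13 (C5) in control libraries. In RPM this was 0, 0.228 and 0 in KPhi and 2.02, 0.421 and 0.756 in control leaves, or 0.0759 ± 0.131 against 1.07 ± 0.846 (SD, n = 3 each). Every KPhi library was below every control library, which held for 6 of all 87 families (6.9%) and for 1 of the 7, and the two-sided exact permutation test gave p = 0.1, the lowest that 3 against 3 libraries allow. Per reads of the miRNA table the groups overlapped, with T4 above C3, and the KPhi mean was 0.204 of the control mean (two-sided exact permutation test, p = 0.2). The pooled levels were 0.0545 RPM (95% exact Poisson interval 0.00138 to 0.303) in KPhi and 1.12 RPM (0.639 to 1.82) in control leaves, and their intervals, which cover counting error only, did not overlap. Such intervals also did not overlap for miR164 (1.60 to 3.03 RPM in KPhi, 3.14 to 5.32 RPM in control leaves). Outside the list this was so as well for miR171 and for every family from rank 1 (miR166) to rank 10 (miR162). Of these, miR5300, miR396 and miR162 were higher in KPhi and the others lower. Such intervals narrow with read number and leave out the spread between libraries. The share of all 87 families without overlap was not counted, so the intervals are given as a description only. The ratio of the pooled miR169 levels was 0.0487 (95% exact interval of counting error 0.00116 to 0.314), on 1 KPhi read.

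The log2 fold change of miR169 was -3.31 (standard error 1.08, 95% interval -5.75 to -0.87), with the smallest unadjusted p of the 49 families in the edgeR fit (0.0135) and an adjusted p of 0.353. Scaled by mappable reads it was -3.79, with an adjusted p of 0.101 in the edgeR fit. The difference therefore did not pass the test. With the 7.5 reads of the opposite precursor arm added, the log2 fold change was -1.29 (standard error 0.61, edgeR adjusted p = 0.531) and the ratio of the RPM means was 0.299 (two-sided exact permutation test, p = 0.2), against 0.0711 without them. These added reads came from 4 sequences of 15 to 18 nt, shorter than every mature miR169 sequence and each with a substitution in its name. The library C1 held 11 of the 16.1 control reads. Without it the family fell under the minimum of 10 reads and could not be fitted, and the control mean was 0.589 ± 0.237 RPM. Nearly all reads were of sly-miR169c_1ss7AG, with 0, 1 and 0 reads in KPhi libraries and 11, 1 and 3 in control libraries, where T4 and C3 had the same raw number. Its log2 fold change was -3.19 (standard error 1.26, edgeR adjusted p = 0.646). The potato sequence stu-miR169a-5p, from which it differs by C1T, G7A and G20T (base of the tomato form first), held 0.125 reads, in C5 alone, and stu-miR169f-3p_L+2 had a single read, in C3.

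**Figure D3:**
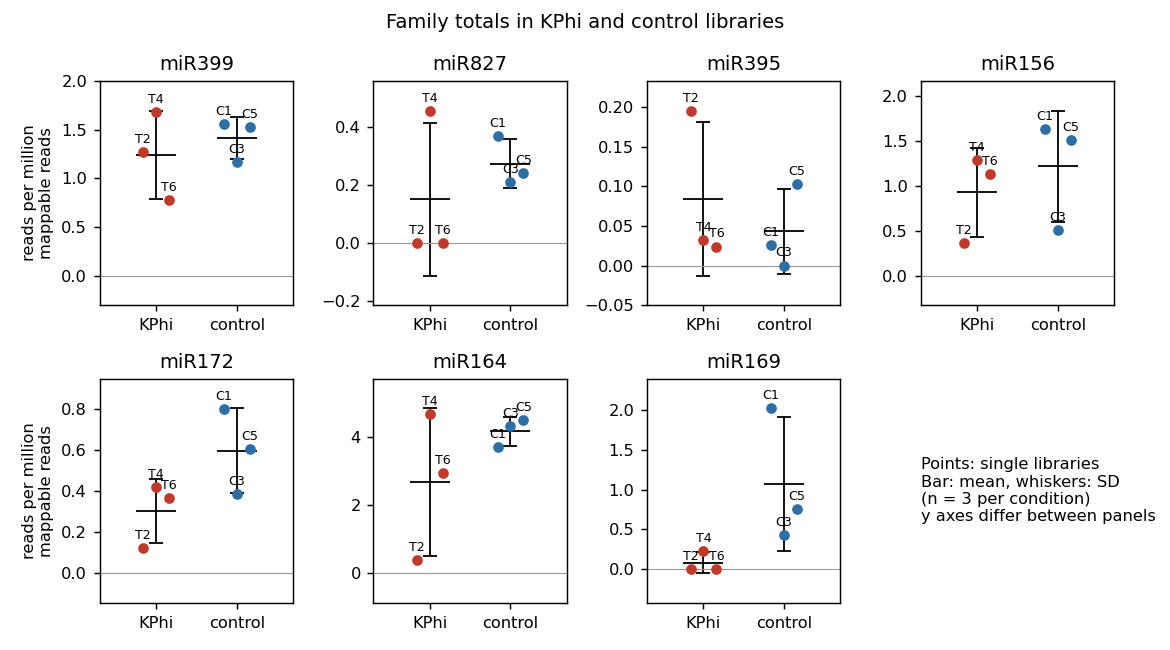
Reads per 1000000 mappable reads of each of the 7 families in KPhi libraries (left in each panel) and control libraries (right), with a point per library and bars for the mean and SD (n = 3 each). The miR169 points at 0, 0.228 and 0 in KPhi all lie below those of the control libraries, at 0.421 to 2.02, and in the other 6 families the groups overlap.

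**Figure D4:**
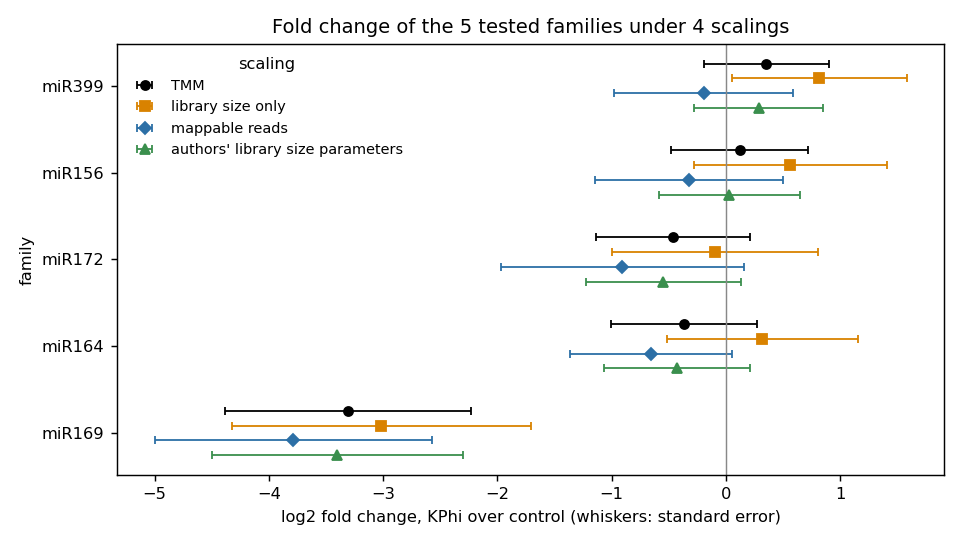
Log2 fold change, KPhi over control, of the 5 tested families with its standard error under 4 scalings between libraries. miR169 stays below 0 under all 4, while miR156 and miR399 are below 0 only when scaled by mappable reads and miR164 is above 0 only when scaled by the table's reads.

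At the level of single sequences, 5 of the 25 reached the minimum of 10 reads and the other 20 did not enter the test. Of the 509 sequences tested none (0%) passed an adjusted p under 0.05 in the edgeR fit, and 39 (7.66%) had an unadjusted p under 0.05, as did 29 by DESeq2 and 24 by limma-trend. Of the 5, sly-miR169c_1ss7AG was the 1 with an unadjusted p under 0.05 in the edgeR fit, and by DESeq2 there was none. Their log2 fold changes were above 0 for stu-miR156a and below 0 for the other 4 (52.5% of all 509 were below 0), with a median of -0.53 against -0.05 for all 509. Of these 4, sly-miR169c_1ss7AG had 15 control reads and 1 KPhi read, and nta-miR156a_L+2R-2 had 10 and 3. Both thus reached the minimum mainly through control reads, which by itself favours a value below 0. The split and the median were partly set by the filter and are given as a description.

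Grouped by role, the families of phosphate starvation together were at 1.39 ± 0.690 RPM in KPhi and 1.69 ± 0.282 RPM in control leaves (SD, n = 3 each; two-sided exact permutation test, p = 0.6). The phase families miR156 and miR172 together were at 1.23 ± 0.653 RPM in KPhi and 1.82 ± 0.814 RPM in control leaves (SD, n = 3 each; two-sided exact permutation test, p = 0.4). The libraries overlapped between the groups in both. The libraries also differed in table share, miR166 share and read length, and the part of these differences in the values was not tested.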

How the data were processed

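Small RNA libraries of 3 KPhi and 3 control leaf samples were analysed from the deposited tables. For these the authors used ACGT101-miR (version not given in the sources used here) to remove reads with no adapter, common RNA families and repeats, and matched the rest to potato and other Solanaceae precursors in miRBase. The deposited read summary gives counts per filtering step. The deposited raw columns have the unit of expected counts, because reads can be divided among sequences, and were rounded to whole reads for the tests. The deposited normalized values (signal) are raw reads divided by a library size parameter of the authors, with 0.001 for 0 reads, and were used in alternatives only. A deposited table of the authors' own comparison, with p-values, was not used. There were 0 columns of other samples.

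Members were the mature rows of 10 listed families. The members and lists were chosen with earlier results of these data known. Named were each family, each member with at least 10 reads and the leading member of each family and arm. Members chosen beyond this rule, to compare forms, were taken after their values were seen. Levels are reads per 1000000 mappable reads, compared by exact permutation tests over libraries. Reads per sequence and per family were fitted with edgeR 4.0.16 (quasi-likelihood, TMM factors of the sequence table, at least 10 reads over 6 libraries, Benjamini-Hochberg over all features, threshold 0.05) in R 4.3.3, with limma 3.58.1 and DESeq2 1.42.0 as alternatives. Intervals of pooled reads are exact Poisson intervals at 95%. The edgeR fit of single sequences with TMM was run on simulated data, whereas the family fits, DESeq2 and limma were not. Other scalings, filters, tests, row sets and leaving out each library were the alternatives.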

Additional observations from a re-analysis of the deposited data

How the results depend on the processing

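None of the tested members passed an adjusted p under 0.05 in any alternative run. Without a filter, edgeR called 4 sequences and 1 family, none of them members. At an unadjusted p under 0.05, the 39 sequences became 16 with a stricter filter (10 reads or more in 3 libraries or more), 24 with limma-trend and 13 to 40 when a library was left out. The 1 member sequence became 0 with library size only, with that filter or with DESeq2, 2 without a filter, and 0 to 1 when a library was left out (0 without T6 or C1). The 6 families became 3 with the stricter filter and 1 to 8 when a library was left out (1 without T2 or C5, 3 without T4 or C1). The 1 member family became 0 with the stricter filter or with opposite-arm sequences added, and 0 to 1 when a library was left out (0 without T6 or C1). With the stricter filter, and without C1, neither miR169 nor sly-miR169c_1ss7AG reached the minimum, so no call of them was possible there.

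Of 143 alternative log2 fold changes, 133 kept their direction and 10 did not. With mappable reads miR156 was at -0.32 and miR399 at -0.20, and with limma-trend miR156 was at -0.019. With library size only miR164 was at 0.32 and sly-miR164a-5p at 0.38, and with opposite-arm sequences added miR172 was at 0.16. Leaving out a library gave -0.23 to 0.39 for miR156, -0.98 to 0.15 for miR164 and -1.06 to 0.22 for sly-miR164a-5p, where T2 alone turned the sign of both miR164 values. miR169 stayed below 0 in all 14 of its fits, at -5.34 to -1.29 (the last with opposite-arm sequences added) with adjusted p-values of 0.0963 to 0.705 (edgeR, DESeq2 and limma). The value of -5.34, without T4, has no KPhi read left and depends on the prior count.

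Of 88 ratios of levels, 75 kept their direction and 13 did not. Per reads of the table the ratio of KPhi to control was 1.32 for all members, 1.53 for miR156, 1.33 for miR164, 1.02 for miR172, 1.94 for miR399, 1.54 for miR827, 3.98 for miR395 and 0.204 for miR169. For miR399 it was 1.09 per table reads without miR166 and 1.26 with the deposited normalized values. With potato names only it was 1.40 for miR156 and 0.983 for miR395, and with opposite-arm sequences 0.384 for miR395. Leaving out a library gave 0.431 to 0.798 for all members, 0.653 to 6.40 for miR395 and 0.722 to 1.04 for miR399. For miR395 and miR827 no library had over 2 reads, so that their ratios describe no difference. The causes were not tested, beyond the change of denominator itself. No paired analysis was made. The KPhi libraries (2, 4 and 6) and the control libraries (1, 3 and 5) share no replicate number, and a pairing of them is not given in the sources used here. Any pairing by experiment was therefore not taken into account. Depth limits all of these values, since 20 of the 25 sequences had under 10 reads.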

Other observations

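Sequences of the precursor arm opposite to the known mature miRNA, which the choice of members left out, were present for 6 of the 7 families with 93.8 reads in 24 sequences. Their reads were 17.4 (T2), 13.4 (T4) and 23.1 (T6) in KPhi libraries, against 14.3 (C1), 12.8 (C3) and 12.8 (C5) in control libraries. For miR156 they held 46 reads in 9 sequences, more than the 32.9 of its mature sequences, with 8, 5 and 12 reads in KPhi libraries and 8, 10 and 3 in control libraries. For miR172 they held 28.3 reads in 4 sequences, against 13.7 mature reads. These 4 were only 15, 18 or 19 nt long, and each carried at least 1 substitution in its name. Single opposite-arm sequences were named after their values were seen. nta-MIR156c-p3_2ss15TA17GT had 5, 3 and 7 reads in T2, T4 and T6, against 1, 5 and 0 in C1, C3 and C5, so that the groups overlapped. Of the 24, 11 were 15 to 19 nt long and 3 were 21 nt.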
